A study of Mus musculus with 6 samples.

Results

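The genes described here are 33 components of granule docking and exocytosis, taken by name from the 40840 rows of a gene count table of mouse pancreatic islets: SNARE proteins, synaptotagmins, Rab GTPases with their effectors, and priming factors. All 33 were in the table and all 33 passed the filter on low counts, at 85 to 21870 counts per library. Islets are the hormone-secreting clusters of the pancreas, rich in beta cells, and the study is on Igf2r, the gene of a large sorting receptor for lysosomal hydrolases that also clears the growth factor IGF2. Wild-type (WT) islets gave 3 libraries and knockout (KO) islets gave the other 3, all on the C57BL/6J background. The labels name no treatment, age, sex, promoter or deleted exon. Nor do they tie each library to an animal of its own, so each p-value is judged against a spread that may be technical.

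Insulin leaves beta cells when granules dock at the plasma membrane, are primed, and fuse as calcium enters. Fusion is driven by SNARE proteins, with a granule VAMP zippering onto syntaxin and SNAP proteins of the plasma membrane. Rab3 and Rab27 with their effectors bring granules to the membrane, Munc13 and CAPS proteins prime them, complexins clamp or promote fusion, and synaptotagmins and Doc2 proteins sense calcium. NSF and its adaptor take spent SNARE complexes apart again.

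Total counts ranged from 16689319 to 18956235 per library. Igf2r itself was at 94.98, 128 and 115 CPM (counts scaled to library size) in the WT libraries and fell to 49.3, 48.1 and 48.4 CPM in the KO libraries. Its log2 fold change was -1.21, with an SE of 0.0946 and an adjusted p of 0.00261 in edgeR's quasi-likelihood test. That call was lost without KO library 1 (adjusted p 0.13) or KO library 2 (0.192), and with the acinar level as a covariate (0.284). The log2 fold change was -1.22, -1.20 and -1.25 in those fits. The islet label was met by its markers, with all 10 beta cell and all 8 alpha cell markers tested and the beta cell markers summing to 132016 to 162077 CPM per library. Libraries stood apart in other cell types. The 26 acinar markers, genes of the digestive-enzyme cells, summed to 17302, 18211 and 2986 CPM in WT libraries 1 to 3 and to 1046, 2696 and 964 CPM in the KO libraries, and 23 of 23 tested had lower values in KO. The 8 gut epithelium markers summed to 509 CPM in WT library 1 and to 146 to 170.4 CPM in the other libraries. Of the acinar markers Amy2a5 had 0 counts in every library. For Snap23, Stx4a, Pclo, Unc13a, Unc13b and Cadps2 the estimate with WT library 3 as the single control is therefore also given. In bulk islets, fewer cells of a type and less RNA per cell cannot be told apart.

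KO was compared with WT to ask which genes differ between the genotypes. Of the 33 exocytosis genes, 0 passed an adjusted p of 0.05, against 2 (0.0123%) of the 16240 genes tested, which were Igf2r and Vwde. An unadjusted p under 0.05 was reached by 4, with Unc13a higher and Unc13b, Pclo and Snap23 lower in KO. That is 12.1% of the list, against 11% of all genes tested, of which 5.19% were higher and 5.8% lower. The other tools gave 0 called members as well, with 2 at an unadjusted p under 0.05 in DESeq2 and 4 in limma-voom. DESeq2 gave an adjusted p to only 3016 of the 16240 genes, and a member without one could not be called by it. The 3 KO values lay wholly above or below the 3 WT values for 6 genes, 18.2% of the list against 15.7% of all genes. Vamp2, Rab3a and Unc13a were above (9.09% against 8.02%) and Snap23, Pclo and Unc13b below (9.09% against 7.69%). KO had the higher mean for 14 of the 33 (42.4%, against 50% of all genes) and the lower mean for 19. The median log2 fold change was -0.013, beside a median of 5.3e-05 over all genes. Log2 fold changes ran from -0.20 for Pclo to 0.12 for Stx4a, so 0 of 33 reached 0.25 in size, against 14% of all genes tested. These shares are not matched in level, since the median SE was 0.0946 over all genes and 0.0594 over the list.

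**Figure D1:**
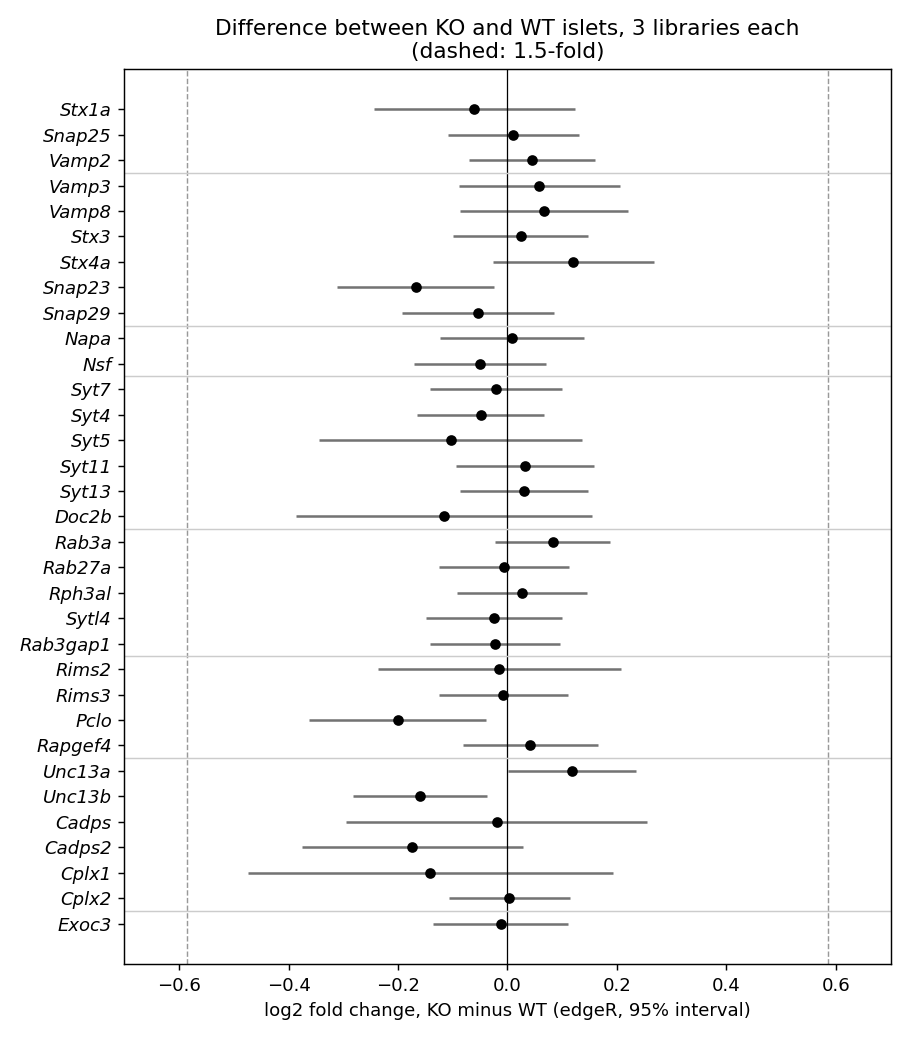
Log2 fold change of each of the 33 genes (x axis, KO minus WT; points, edgeR estimate; bars, 95% interval), grouped by role from the granule SNAREs at the top to the exocyst at the bottom. All 33 intervals lie between the dashed lines at a 1.5-fold difference, and those of Snap23, Pclo, Unc13a and Unc13b leave out 0.

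The 95% intervals describe the precision of the fit within these libraries. They rest on a spread that may be technical, are set for each gene singly and hold for the model with genotype only. With the acinar covariate, for example, the Vamp3 estimate was -0.15, outside its interval of -0.089 to 0.21 in the main fit. The covariate fit itself separates acinar level from genotype poorly, as every KO library had the lower acinar sum. The intervals of the main fit are therefore no limit on a difference between the genotypes. The 95% interval of the log2 fold change lay within a 1.5-fold difference in either direction for 33 of 33 exocytosis genes, and within 1.2-fold for 24. Over all genes tested, which were not matched to the list in level, 77.2% had an interval within 1.5-fold. The median SE was 0.0594 for the list and 0.0665 for all genes with a mean log2 CPM of at least 4. The share of all counts that fell on the 33 genes stood at 0.647%, 0.647% and 0.648% for WT, and at 0.655%, 0.635% and 0.647% for KO. KO library 1 lay above the 3 WT shares, KO library 2 below them and KO library 3 among them.

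**Figure D2:**
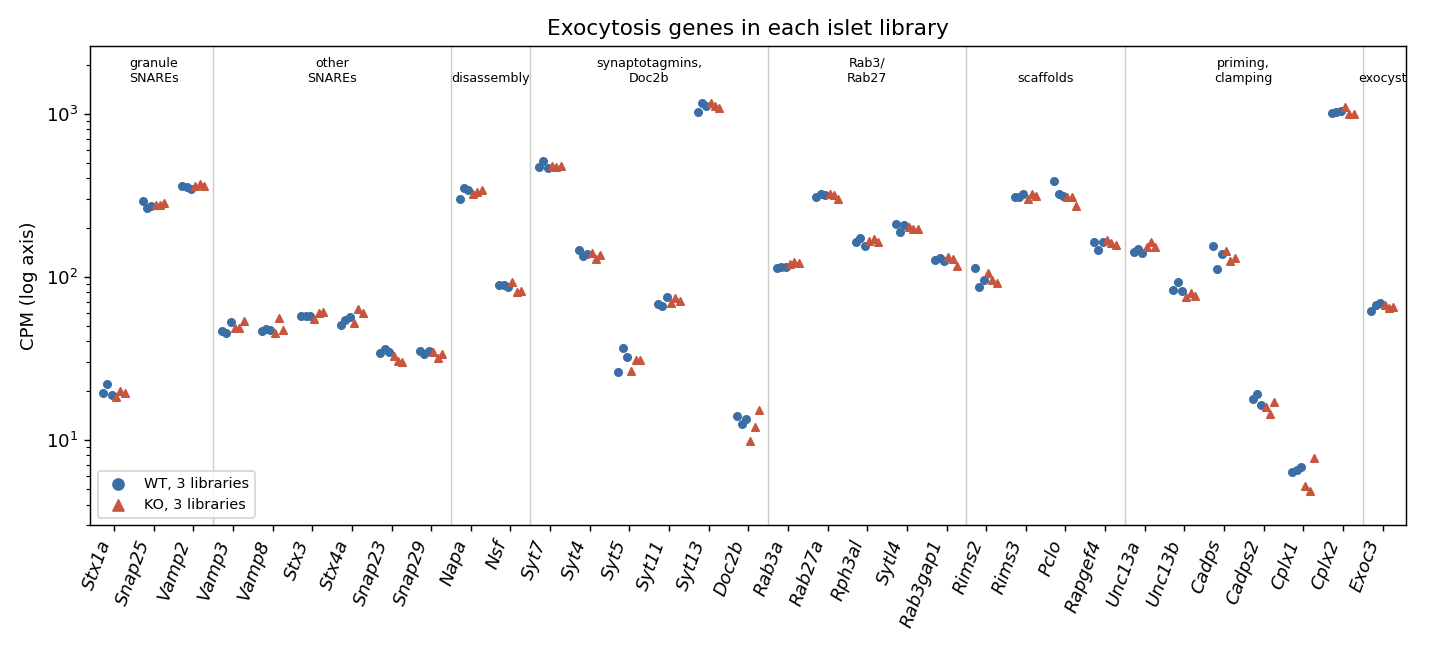
CPM of each gene in each library (y axis, log scale; circles, the 3 WT libraries; triangles, the 3 KO libraries), grouped by role. Levels span from about 5 CPM for Cplx1 to 1163 CPM for Syt13, and the genotypes overlap for 27 of the 33 genes.

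None of the 3 SNARE proteins best known from granule fusion passed the test. Vamp2, the granule SNARE also known as synaptobrevin 2, was at 358, 353 and 343 CPM in WT and 360.0, 369 and 359 CPM in KO. Every KO library lay above every WT library in CPM, but narrowly, with WT library 1 at 358.4 and KO library 3 at 359.4 CPM. On the length-scaled levels given further below (TPM) the groups overlapped, at 271, 251 and 249 in WT and 260, 257 and 264 in KO. The log2 fold change was 0.045, with an SE of 0.0554 and an edgeR adjusted p of 0.804. Snap25, a plasma membrane partner in the complex, was at 289.7, 265 and 272 CPM in WT and 277, 276 and 281 CPM in KO, and the KO values fell inside the WT range (log2 fold change 0.011, SE 0.0575, adjusted p 0.959 by edgeR). Stx1a, the plasma membrane syntaxin, was at 19.3, 21.9 and 18.8 CPM in WT and 18.2, 19.9 and 19.3 CPM in KO, again with overlapping groups (log2 fold change -0.061, SE 0.0881, adjusted p 0.837 by edgeR). Its 95% interval was -0.24 to 0.12, wider than those of Snap25 (-0.11 to 0.13) and Vamp2 (-0.071 to 0.16).

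Of the 6 SNARE proteins with broader or other secretory roles, 4 had higher and 2 lower values in KO. Snap23, the widely expressed relative of Snap25, was at 33.8, 36.0 and 34.6 CPM in WT and 32.6, 30.5 and 29.8 CPM in KO. All 3 KO libraries were below all 3 WT libraries, with a log2 fold change of -0.17, with an SE of 0.0687 and an edgeR adjusted p of 0.399. The estimate stayed between -0.21 and -0.14 when any single library was left out and was -0.16 against WT library 3 alone, the WT library with the fewest acinar transcripts. Stx4a, a plasma membrane syntaxin of many cell types, had the highest log2 fold change in the list, 0.12, with an SE of 0.0708 and an edgeR adjusted p of 0.545. Its libraries overlapped, at 50.7, 53.9 and 56.5 CPM in WT and 52.2, 63.3 and 59.8 CPM in KO. The estimate was 0.060 without KO library 2, 0.20 without KO library 1 and 0.044 against WT library 3 alone. Vamp8, an endosomal and granule SNARE that also serves acinar granules, was at 46.3, 47.6 and 47.3 CPM in WT and 44.8, 56.0 and 47.1 CPM in KO (log2 fold change 0.067, SE 0.0737, adjusted p 0.769 by edgeR). Its WT values stayed between 46.3 and 47.6 CPM, while KO library 2 stood above all other libraries. Vamp3, Stx3 and Snap29 had log2 fold changes of 0.058, 0.025 and -0.054, with edgeR adjusted p of 0.795, 0.915 and 0.801.

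The pair that takes SNARE complexes apart also overlapped between genotypes. Napa, the adaptor alpha-SNAP, was at 298, 347 and 339 CPM in WT and 323, 329 and 338 CPM in KO (log2 fold change 0.0085, SE 0.0630, adjusted p 0.971 by edgeR). Nsf, the ATPase, was at 89.4, 88.3 and 86.5 CPM in WT and 92.2, 81.0 and 81.9 CPM in KO (log2 fold change -0.050, SE 0.0580, adjusted p 0.785 by edgeR). WT library 1 was the lowest library for Napa and KO library 1 the highest for Nsf.

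Synaptotagmins bind calcium or, in some members, membranes without calcium, and the 5 listed here with Doc2b gave 2 higher and 4 lower values in KO. Syt7, a high-affinity calcium sensor of insulin granules, was at 471, 515 and 461 CPM in WT and 480.0, 472 and 474 CPM in KO (log2 fold change -0.020, SE 0.0581, adjusted p 0.929 by edgeR). The KO libraries were closer to each other than the WT ones and lay inside their range. Syt13, an atypical synaptotagmin, had the highest CPM of the list, 1017 to 1163 over the 6 libraries (log2 fold change 0.031, SE 0.0560, adjusted p 0.877 by edgeR). Syt4 ranged from 129 to 146 CPM, Syt11 from 65.9 to 74.9 CPM and Syt5 from 26.1 to 36.3 CPM, with log2 fold changes of -0.049, 0.032 and -0.10 and edgeR adjusted p of 0.778, 0.885 and 0.764. Doc2b, a soluble calcium sensor that binds SNAREs, was at 14.1, 12.4 and 13.4 CPM in WT and 9.88, 11.9 and 15.1 CPM in KO. Its KO libraries included both the lowest and the highest value of the 6 (log2 fold change -0.12, SE 0.128, adjusted p 0.77 by edgeR).

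Among the Rab GTPases and their partners, Rab3a had the smallest spread. Rab3a, a GTPase of secretory vesicles, was at 113, 115 and 115 CPM in WT and 119, 123 and 122 CPM in KO. The genotypes did not overlap, with a log2 fold change of 0.083, with an SE of 0.0507 and an edgeR adjusted p of 0.565. The SD of its log2 CPM within a genotype was 0.0208, the lowest of the 33 genes, against 0.256 for Cplx1, the highest. Rab27a, the GTPase that recruits granuphilin, was at 307, 321 and 315 CPM in WT and 321, 317 and 301 CPM in KO (log2 fold change -0.0066, SE 0.0568, adjusted p 0.974 by edgeR). Sytl4, which encodes granuphilin and holds granules docked, ranged from 187 to 211 CPM (-0.025, adjusted p 0.915 by edgeR), and Rph3al, the Rab effector Noc2, from 155 to 171 CPM (0.027, adjusted p 0.9 by edgeR). Rab3gap1, the catalytic subunit that switches Rab3 off, ranged from 117 to 132 CPM (-0.023, adjusted p 0.917 by edgeR).

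Scaffolds hold granules near calcium channels. Pclo, the giant scaffold piccolo, was at 384, 321 and 313 CPM in WT and 306, 308 and 272 CPM in KO. All KO libraries were below all WT libraries, WT library 1 stood highest and KO library 3 lowest, and the log2 fold change was -0.20, with an SE of 0.0763 and an edgeR adjusted p of 0.383. Without WT library 1 the estimate was -0.10 (edgeR adjusted p 0.769), near that with WT library 3 as the single control (-0.085). In the fit with the acinar covariate it was -0.014, but that fit separates acinar level from genotype poorly, as every KO library had the lower acinar sum. Rims2, an active zone protein that binds Rab3 and Munc13, was at 113, 85.8 and 95.2 CPM in WT and 105, 94.9 and 91.8 CPM in KO, with overlapping groups (log2 fold change -0.015, SE 0.0977, adjusted p 0.968 by edgeR). Rims3, a short RIM protein, ranged from 301 to 319.6 CPM (-0.0076, adjusted p 0.971 by edgeR). Rapgef4, which encodes the cyclic AMP sensor Epac2, ranged from 147 to 169 CPM (0.042, adjusted p 0.835 by edgeR).

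The Munc13 priming factors had values in opposite directions. Unc13a, which encodes Munc13-1, was at 142, 148 and 140.2 CPM in WT and 152, 164 and 152 CPM in KO, with every KO library above every WT library. Unc13b, which encodes Munc13-2, was at 82.8, 92.9 and 81.6 CPM in WT and 75.5, 79.0 and 75.9 CPM in KO, with every KO library below every WT library. Neither passed the test over all genes. The log2 fold change was 0.12, with an SE of 0.0562 and an edgeR adjusted p of 0.451 for Unc13a and -0.16, with an SE of 0.0588 and an edgeR adjusted p of 0.351 for Unc13b. For Unc13a the estimate was 0.15 with WT library 3 as the single control and 0.21 once the acinar level entered as a covariate. For Unc13b it was -0.089 and -0.038, nearer to 0 in both. The acinar marker sum was lower in every KO library than in every WT library, so the covariate fit separates it from genotype poorly. Whether acinar content has a part in the Unc13b values was not tested. Without WT library 2, the WT library highest in Unc13b, its estimate was -0.098. Unc13a and Unc13b are at chr8:71624417-71671757 (minus strand) and chr4:43058953-43264871 (plus strand) of GRCm38.

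The ratio of the pair does not depend on how libraries are scaled. WT libraries held 1.71, 1.60 and 1.72 Unc13a counts per Unc13b count, and KO libraries held 2.01, 2.07 and 1.997. The groups did not overlap, and their means were 1.68 ± 0.0694 and 2.03 ± 0.0404 (SD, n = 3). The log2 difference was 0.28, and the exact permutation test (two-sided) gave 0.1, the lowest p possible with 3 libraries a side, or an adjusted p of 0.533 over 8 paralog pairs. Leaving out any single library left the log2 difference between 0.24 and 0.29. The other 7 pairs overlapped between genotypes. Snap25 to Snap23 stood at 8.57, 7.37 and 7.87 in WT and 8.49, 9.06 and 9.42 in KO (exact permutation p 0.2, adjusted p 0.533). Stx1a to Stx4a stood at 0.380, 0.406 and 0.332 in WT and 0.349, 0.314 and 0.323 in KO (exact permutation p 0.2, adjusted p 0.533). Only KO library 1 lay inside the WT range in both of these pairs.

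**Figure D3:**
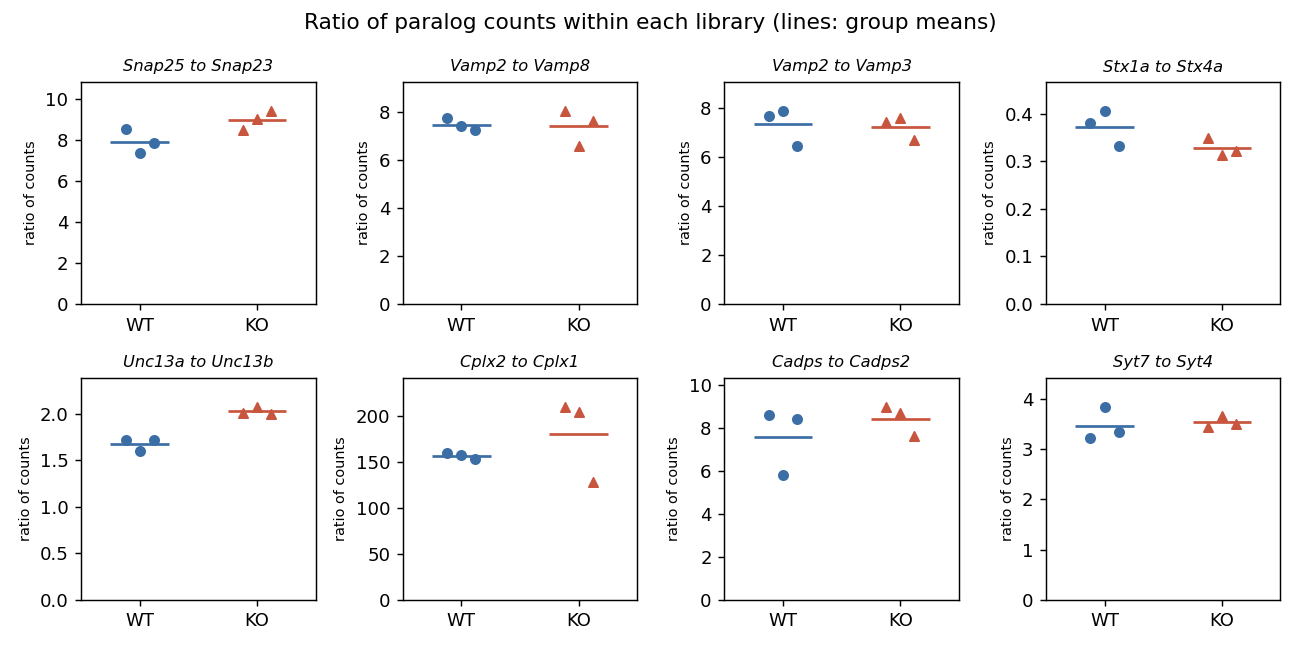
Ratio of the counts of 2 paralogs within each library (y axis from 0; circles, the 3 WT libraries; triangles, the 3 KO libraries; lines, group means), 1 panel for each of 8 pairs. The genotypes are apart for Unc13a to Unc13b, near 1.68 in WT and 2.03 in KO, and overlap in the other panels.

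The CAPS proteins, which prime dense-core granules, and the complexins gave no call. Cadps was at 154, 112 and 138 CPM in WT and 143, 124 and 131 CPM in KO (log2 fold change -0.019, SE 0.117, adjusted p 0.967 by edgeR). WT libraries 1 and 2 held its highest and lowest values, so the genotypes overlapped fully. Cadps2 was at 17.9, 19.2 and 16.4 CPM in WT and 15.9, 14.3 and 17.1 CPM in KO (log2 fold change -0.17, SE 0.0969, adjusted p 0.523 by edgeR), with 1 KO library inside the WT range. Its estimate was -0.056 against WT library 3 alone, and between -0.23 and -0.11 with any single library left out. Cplx2 was at 1015, 1020.3 and 1037 CPM in WT and 1091, 992 and 996 CPM in KO (log2 fold change 0.0036, SE 0.0531, adjusted p 0.987 by edgeR), with 1 KO library above and 2 below all WT libraries. Cplx1, its paralog, was at 6.37, 6.49 and 6.77 CPM in WT and 5.20, 4.87 and 7.77 CPM in KO. Here 2 KO libraries were below and 1 above all WT libraries, and its interval of -0.47 to 0.19 was the widest of the 33 genes. Exoc3, the one listed subunit of the exocyst tethering complex, ranged from 61.8 to 69.0 CPM (log2 fold change -0.013, SE 0.0589, adjusted p 0.954 by edgeR).

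The 4 genes with an unadjusted p under 0.05 are shown with the 250 bases before their transcription start, as these hold the values farthest from 0 relative to their error. Sequences are from RefSeq on GRCm38.p6, written 5′ to 3′ on the strand of the gene, with none of these bases in an annotated exon. Capitals mark matches on either strand to GGGCGG (GC box), CCAAT, or CACGTG (E-box).
Unc13a, chr8:71671758-71672007: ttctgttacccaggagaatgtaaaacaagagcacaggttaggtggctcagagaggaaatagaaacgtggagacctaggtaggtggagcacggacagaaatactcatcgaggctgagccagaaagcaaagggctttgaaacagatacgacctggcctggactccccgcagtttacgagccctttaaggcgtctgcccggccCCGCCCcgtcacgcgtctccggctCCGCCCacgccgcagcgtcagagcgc
Unc13b, chr4:43058703-43058952: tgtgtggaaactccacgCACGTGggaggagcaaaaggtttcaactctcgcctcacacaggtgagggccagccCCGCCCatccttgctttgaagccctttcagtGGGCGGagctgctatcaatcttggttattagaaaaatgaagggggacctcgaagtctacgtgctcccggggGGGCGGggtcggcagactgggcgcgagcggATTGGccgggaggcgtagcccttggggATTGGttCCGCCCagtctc
Pclo, chr5:14514668-14514917: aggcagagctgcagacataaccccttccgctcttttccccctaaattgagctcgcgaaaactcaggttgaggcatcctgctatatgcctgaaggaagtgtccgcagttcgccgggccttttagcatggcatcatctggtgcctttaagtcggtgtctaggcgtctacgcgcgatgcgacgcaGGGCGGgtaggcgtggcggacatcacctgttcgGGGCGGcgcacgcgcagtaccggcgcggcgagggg
Snap23, chr2:120567421-120567670: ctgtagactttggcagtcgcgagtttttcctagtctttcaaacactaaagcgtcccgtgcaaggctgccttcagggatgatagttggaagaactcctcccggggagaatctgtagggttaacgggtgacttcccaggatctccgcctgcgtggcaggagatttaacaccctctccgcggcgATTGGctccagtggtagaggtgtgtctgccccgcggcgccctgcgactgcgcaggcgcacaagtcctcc
Unc13a is on the minus strand, and Unc13b, Pclo and Snap23 are on the plus strand. The window of Unc13b held 4 GC boxes, 2 CCAAT matches and 1 E-box, those of Unc13a and Pclo 2 GC boxes each, and that of Snap23 1 CCAAT match. None of the 4 held TATAAA or the cyclic AMP response element TGACGTCA. CG pairs numbered 18 in Unc13a, 16 in Unc13b, 25 in Pclo and 17 in Snap23.

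The same windows were read for every listed gene the RefSeq table covers, 26 windows of 24 genes. GGGCGG or its reverse complement was in 16 of the 26 windows (61.5%), against 32.7% of all 32851 windows. CACGTG was in 5 (19.2%, against 6.02%), CCAAT in 7 (26.9%, against 33.8%), TATAAA in 1 (3.85%, against 12.4%) and TGACGTCA in 0 (against 1.55%). The median window of the list held 15 CG pairs and 59.2% G and C, against 6 and 52.4% over all windows, which were not matched to the list in level or gene class. A match describes the letters and is not a binding site.

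Levels were compared between genes only per exon length, as TPM, the share of all length-scaled counts. Syt13 was the most abundant, at 809.5 ± 29.6 TPM in WT (SD, n = 3), followed by Cplx2 at 578 ± 16.5 TPM and Vamp2 at 257 ± 11.95 TPM. Syt13 lay above Cplx2, and Cplx2 above Vamp2, in every library. Napa (241 ± 12.4 TPM) overlapped with Vamp2 and with Rab27a (225 ± 2.06 TPM). At the lower end were Unc13b (10.5 ± 0.567 TPM), Doc2b (8.49 ± 0.797 TPM), Cplx1 (8.32 ± 0.267 TPM) and Cadps2 (5.18 ± 0.383 TPM). Of the 32 pairs of neighbours in this order, 9 did not overlap over the 6 libraries. The other gaps, besides those after Syt13 and Cplx2, were Rab27a over Syt7, Syt7 over Rab3a, Rab3a over Rph3al, Syt4 over Rapgef4, Vamp8 over Vamp3, Stx1a over Unc13b, and Cplx1 over Cadps2. Every other pair of neighbours overlapped. In all, 12 of the 33 genes were at or above the 90th percentile of the genes tested, and the median member was at percentile 78.7.

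**Figure D4:**
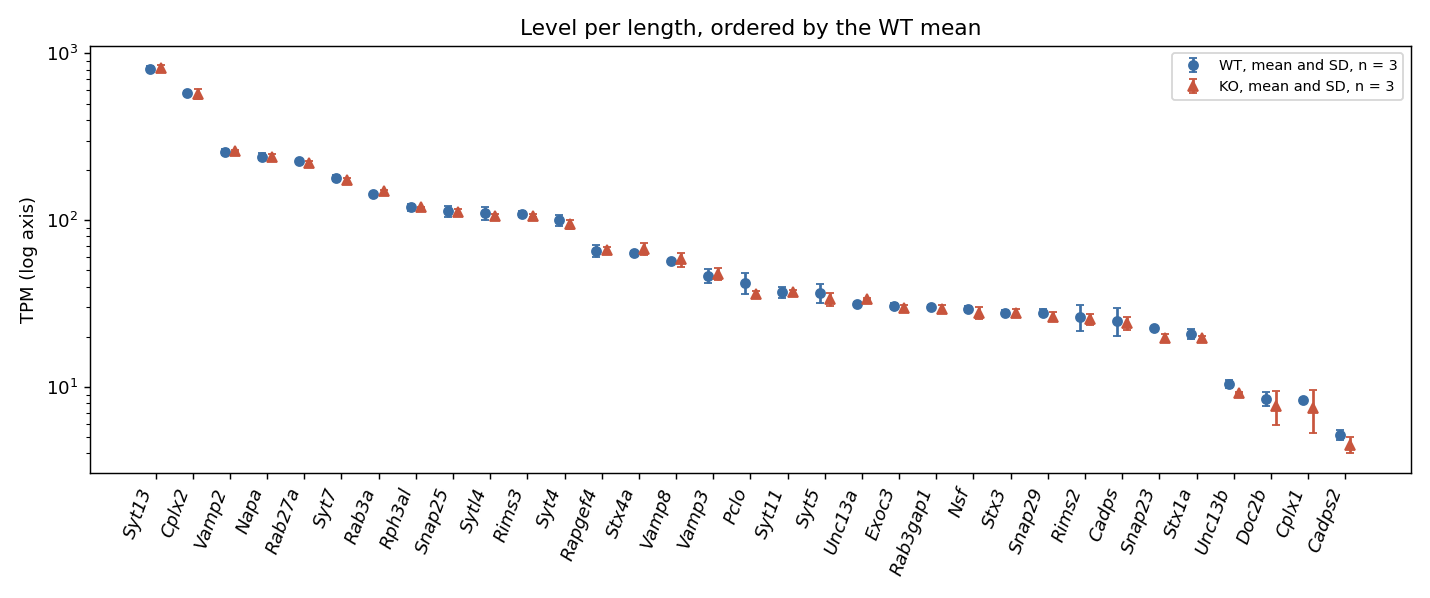
TPM of the 33 genes (y axis, log scale; points, mean of 3 libraries; bars, SD), ordered by the WT mean, with WT as circles and KO as triangles. The order runs from Syt13 at 809.5 TPM to Cadps2 at 5.18 TPM in WT.

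Within families, one paralog led. Per length, Cplx2 was 69.6 ± 1.35 times Cplx1 in WT and 80.2 ± 20.2 times in KO (SD, n = 3). Snap25 exceeded Snap23 5.02-fold and Vamp2 exceeded Vamp3 5.58-fold and Vamp8 4.54-fold in WT. Cadps exceeded Cadps2 4.84-fold and Rims3 exceeded Rims2 4.20-fold. Among the syntaxins the order was the other way, since Stx4a was 3.05 times and Stx3 1.35 times the level of Stx1a in WT, the syntaxin best known from insulin granule fusion. Each of these leads held in all 6 libraries. The lengths are the merged exons of all annotated transcripts, 22746 bases for Unc13b and 22457 for Pclo, and merging understates the TPM of genes with long rare isoforms.

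Spread between libraries of a genotype differed among the genes. It was largest for Cplx1, Doc2b and Syt5, all under 40 CPM, and next for Cadps, Rims2, Pclo and Cadps2, which are the 4 genes of the list that span over 300 kb. The size of 300 kb was chosen after the values were seen. Relative to the mean of its genotype, WT library 1 stood 0.21 log2 units higher for Cadps, 0.22 for Rims2 and 0.18 for Pclo, and 0.0081 for Cadps2. KO library 1 stood 0.11, 0.11, 0.052 and 0.017 higher. The 234 tested genes of this span with a mean log2 CPM of at least 4 had median deviations of 0.095 in WT library 1 and 0.059 in KO library 1, and -0.069 in WT library 2, while the 8253 shorter genes had medians from -0.0048 to 0.0058 over the 6 libraries. WT library 1 is also the library with the most gut transcripts, with 5069 counts of Apoa4 against 73 in KO library 3 and 0 in the others. The part of gut transcripts in these values was not tested. Over the 33 genes, Spearman's rho of the spread was 0.14 with span and -0.47 with mean log2 CPM, given as descriptions over genes that share the same 6 libraries.

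**Figure D5:**
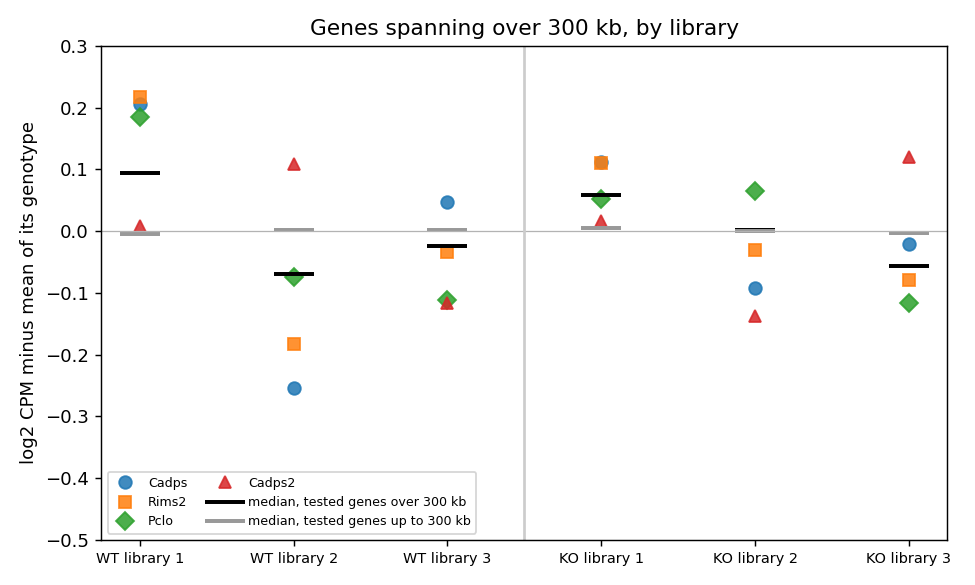
Log2 CPM of Cadps, Rims2, Pclo and Cadps2 minus the mean of their genotype (y axis) in each library (x axis), with short bars for the median of tested genes over 300 kb (black) and up to 300 kb (grey). Cadps, Rims2 and Pclo are 0.18 to 0.22 above 0 in WT library 1, where the median of long genes is 0.095 and that of shorter genes is near 0.

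Other genes of the pathway were read from 7 lists of 111 genes, of which 106 were tested and 0 passed edgeR's test. An unadjusted p under 0.05 was reached by 6 with higher and 9 with lower values, together 14.2% against 11% of all genes, and the genotypes did not overlap for 14 (13.2%, against 15.7%). The median of their log2 fold changes was -0.024. For each list the gene with the smallest p and the gene with the highest CPM follow, except where 1 is not reported. Among the other syntaxins, VAMPs and SNAPs, Vamp5 was at 3.82, 4.41 and 4.07 CPM in the WT libraries and 5.26, 6.01 and 4.41 CPM in the KO libraries (log2 fold change 0.35, SE 0.160, adjusted p 0.435 by edgeR) and Stx5a had a log2 fold change of -0.035. In the list of Sec1/Munc18 proteins and tomosyns, Stxbp2 had a log2 fold change of 0.091. Esyt1, an extended synaptotagmin of contacts between endoplasmic reticulum and plasma membrane, led its list on both counts, at 137, 121 and 148 CPM in the WT libraries and 159, 157 and 152 CPM in the KO libraries (log2 fold change 0.20, SE 0.0652, adjusted p 0.308 by edgeR).

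Of the 22 tested Rab genes, effectors and regulators outside the list of 33, 0 were higher and 5 lower at an unadjusted p under 0.05, where 5.19% and 5.8% of all genes were. No test of the group as a whole was made. Mlph, the Rab27 effector melanophilin, was at 41.8, 46.8 and 35.0 CPM in WT and 34.1, 35.5 and 33.8 CPM in KO (log2 fold change -0.26, SE 0.0855, adjusted p 0.324 by edgeR). Its KO values were close together and the WT values spread from just inside them upwards, and edgeR called it lower only without WT library 3. Rab37, a GTPase of insulin granules, was at 345, 329 and 367 CPM in the WT libraries and 359, 345 and 353 CPM in the KO libraries, a log2 fold change of 0.023. Among scaffolds, Ppfia3, a liprin, was at 19.5, 22.6 and 20.2 CPM in the WT libraries and 25.4, 24.1 and 23.7 CPM in the KO libraries (log2 fold change 0.23, SE 0.0831, adjusted p 0.337 by edgeR), and Rimbp2, which links RIM proteins to calcium channels, had a log2 fold change of 0.026. Of the other 11 exocyst and Exoc3-like genes, 9 had lower values, against 8118 of all 16240 genes tested, with Exoc7 at -0.022. The lower ones included the Exoc3-like genes Exoc3l and Exoc3l4, with SEs of 0.171 and 0.270. Exoc3l2, an Exoc3-like gene, was on the higher side at 36.8, 39.4 and 38.4 CPM in WT and 44.9, 44.9 and 46.0 CPM in KO (log2 fold change 0.24, SE 0.0627, adjusted p 0.242 by edgeR). Its genotypes did not overlap, and edgeR called it only without a filter on low counts. In the list of granule proteins tied to docking, Ptprn, which encodes the granule protein IA-2, was at 647, 662 and 661 CPM in WT. It was at 698, 741 and 711 CPM in KO (log2 fold change 0.13, SE 0.0530, adjusted p 0.406 by edgeR), again without overlap. Its paralog Ptprn2 went the other way, with overlap (log2 fold change -0.11, SE 0.0540, adjusted p 0.453 by edgeR). Scg2, which encodes a granin and not a membrane protein, had a log2 fold change of -0.061.

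Marker sums of other cell types also differed between the libraries. The 6 delta and PP cell markers summed to 8236, 11274 and 9084 CPM in WT and 11808, 11634 and 12580.2 CPM in KO, with no overlap. That sum was carried by Ppy and Pyy, whose values were above WT in every KO library. The delta cell hormone Sst overlapped, and the delta cell factor Hhex was below WT in every KO library. Of all genes tested, 8.02% had every KO library above every WT library, and 7.69% had every KO library below. The 8 macrophage and leukocyte markers summed to 363, 328 and 386 CPM in WT and 396, 417 and 427 CPM in KO, with no overlap. Most of this sum came from the single gene Cd74. Taken one by one, 3 of the 8 markers separated the genotypes, each with KO on top, as did 8.02% of all genes tested. Log2 fold changes were above 0 for 7 markers and under 0 for 1. The 10 Schwann cell and neuron markers, from cells that share much of this machinery, summed to 110.4, 113 and 129 CPM in WT and 109, 121 and 154 CPM in KO, with overlap. The beta cell markers summed to 132016, 139704 and 151133 CPM in WT and 155743, 162077 and 146279 CPM in KO, with overlap. That sum hides opposite directions, since Ins2 was above WT and Ins1 below WT in every KO library. Of the 10 markers, 5 were higher and 1 lower at an unadjusted edgeR p under 0.05, against 5.19% and 5.8% of all genes, and 0 were called. Their log2 fold changes ran from -0.53 to 0.41, with a median of 0.14. The part of all these cell types in the values of single exocytosis genes was not tested.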

How the data were processed

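RNA was measured in 6 libraries of mouse islets. Per the labels' protocols, libraries were strand-specific. Trimmomatic 0.39, STAR 2.7.10b, featureCounts 2.0.3 and the mm10 build are named per the submitters' processing notes. Which annotation and strand setting the counting used is not given in the sources used here, so reads of overlapping antisense genes may be merged or left out. In all, 10 of the 33 genes share exon bases with another gene, at most 14.5% of their length (Syt4). They include Unc13a, at 3.92% with Colgalt1, and Pclo, at 1.91% with Gm26918 and 2.21% with Gm26954. The authors deposited raw counts per gene, and no other unit was used. Columns name genotype and a number. The titles number KO samples from 4 to 6, so KO column numbers are names only.

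Genes were kept by filterByExpr (minimum count 10, minimum total 15) in edgeR 4.0.16, which left 16240, scaled by TMM, and tested with glmQLFit (robust) and glmQLFTest, two-sided, Benjamini-Hochberg adjusted over all of them, threshold 0.05. The SE is the size of the log2 fold change over the square root of F. CPM use TMM-scaled totals, except marker sums, which use total counts. TPM use exon lengths of GENCODE M21 (GRCm38), matched for 30160 rows. Paralog ratios were compared by an exact permutation test. DESeq2 1.42.0 and limma-voom 3.58.1 in R 4.3.3 were alternatives, beside other scalings, filters, acinar adjustments and each library left out. All members are described, and from each further list the genes called, or else those with the smallest p and highest CPM. For 1 list the gene with the highest CPM is not reported here. Members and lists were chosen with earlier results of these data known.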

Additional observations from a re-analysis of the deposited data

How the results depend on the processing

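No member was called in any of 15 alternative settings (other scalings, tools, filters, acinar adjustments, WT library 3 alone, and each library left out). The members' smallest edgeR adjusted p was 0.157, for Pclo without a filter on low counts, and 0.139 by DESeq2, also for Pclo. By DESeq2, members without an adjusted p could not be called. The count of all genes called was less stable. It was 108 higher and 164 lower without a filter on low counts, where 1 further pathway gene was called higher (Exoc3l2), 19 and 39 by DESeq2, which gave 3016 genes an adjusted p, 1 lower without robust estimation and 1 lower by limma-voom. It was 1 higher and 3 lower with acinar genes left out, and 0 higher and 0 lower with the acinar covariate. With 1 library left out it ranged from 0 to 21 higher and 0 to 93 lower, and 0 to 1 other pathway genes were called lower (Mlph without WT library 3). The members' median log2 fold change was -0.033 with the acinar covariate and -0.026 against WT library 3 alone, and -0.025 to 0.0010 with 1 library left out. The cause of these differences was not tested.

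Some values changed sign, none of them called. With the acinar covariate these were Stx1a (0.088), Vamp3 (-0.15), Napa (-0.049), Syt7 (0.057), Syt11 (-0.067), Rab27a (0.0088), Rab3gap1 (0.038), Rims2 (0.012), Rapgef4 (-0.033), Cplx2 (-0.048). Against WT library 3 alone they were Stx1a (0.026), Vamp3 (-0.082), Napa (-0.041), Syt7 (0.043), Syt11 (-0.078), Rab3gap1 (0.0025), Rims2 (0.027), Rapgef4 (-0.016), Cplx2 (-0.017). With upper quartile scaling it was Rab27a (0.00018). With 1 library left out, values crossed 0 for Napa (-0.056 to 0.052), Syt13 (-0.020 to 0.076), Sytl4 (-0.078 to 0.0071), Rims2 (-0.10 to 0.10), Cadps (-0.14 to 0.089), Cplx2 (-0.042 to 0.028), Stx1a (-0.10 to 0.0089), Snap25 (-0.016 to 0.048), Syt7 (-0.049 to 0.030), Syt5 (-0.22 to 0.011), Syt11 (-0.0044 to 0.092), Rab27a (-0.025 to 0.021), Rapgef4 (-0.0065 to 0.073), Exoc3 (-0.059 to 0.023), Rph3al (-0.0077 to 0.063), Rims3 (-0.029 to 0.015), Doc2b (-0.29 to 0.023), Vamp8 (-0.033 to 0.13), Stx3 (-0.0020 to 0.065), Rab3gap1 (-0.061 to 0.028), Vamp2 to Vamp8 (-0.077 to 0.066), Vamp2 to Vamp3 (-0.11 to 0.040), Syt7 to Syt4 (-0.019 to 0.11) and Cadps to Cadps2 (-0.015 to 0.27), the pairs given as log2 differences of their ratio. No paired analysis was made, because the labels name no pairs. The count columns use the same numbers in both genotypes, but the sample titles do not. Every member had at least 85 counts in each library, and the widest interval was that of Cplx1, the member with the fewest counts.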
